A study of Mus musculus with 30 samples.

Results

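Of 27876 H3K27ac peaks called in mouse ER-Hoxa9-Lys-GFP cells growing in estradiol (E2), 1476 were present in cells that had spent 72 h without E2 before E2 was returned, and absent from cells left without E2 for 120 h. They were chosen from 3 peak lists by overlap of at least 1 bp: a peak of the E2 list had to overlap the 72 h list and no peak of the 120 h list, on chromosomes 1 to 19 and X. They made up 5.29% of the E2 list and 14.5% (95% interval 13.9 to 15.2) of the 10148 E2 peaks absent at 120 h. They are called 72 h-retained peaks below, which is a label only. The 72 h sample was taken after 48 h of restored E2, so a peak that stayed cannot be told from one lost and regained. The working name of the set, E2 peaks present at 72 h only, does not describe them: 1271 of the 1476 were also in both the 24 h and the 40 h list, and another 151 in 1 of these.

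The cells (C57BL/6) carry an estrogen receptor fusion of HOXA9, whose activity depends on E2, and all were grown in medium conditioned with stem cell factor. The groups used here were 24, 40, 56 and 72 h of E2 withdrawal followed by 96, 80, 64 and 48 h of restored E2, 120 h of withdrawal with no restoration, and untreated cells kept in E2. A longer withdrawal thus came with a shorter restoration, with the same total time in each, and their effects cannot be told apart. The lists are named by hours of withdrawal and are separate treatment arms, not successive times of 1 course. Each condition had 1 library per mark from 1 cell line, so no difference has a replicate check and no p-value is given. The labelled cell type could not be checked against markers, since these lists were not paired with genes.

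HOXA9 is a homeodomain transcription factor that keeps blood progenitors growing and binds mainly at enhancers. E2 keeps the fusion protein active, and its removal lets the cells mature along the myeloid path. H3K27ac is deposited by the acetyltransferases p300 and CBP at active enhancers and promoters. H3K27me3 is placed on the same lysine by Polycomb repressive complex 2, so that a single histone tail cannot carry both marks.

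The lists differed in length. The H3K27ac lists of 24, 40, 56, 72 and 120 h held 36845, 28791, 6356, 24930 and 48710 peaks over 14.7, 10.6, 1.999, 8.22 and 21.5 Mb, and the E2 list covered 10.7 Mb. The 72 h-retained peaks were therefore missing from the longest list while present in a list shorter than that of E2. Of all E2 peaks, 48.5% were in the 72 h list and 63.6% in the 120 h list. The sources used here do not give the read depth or the calling threshold, and the 95% intervals cover only the error of counting peaks. They were taken by Clopper-Pearson's method for a share, by Newcombe's for a difference of shares and from binomial order statistics for a median. Neighbouring peaks are not independent, so these intervals are too narrow.

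The 72 h-retained peaks were set against the other E2 peaks by their fate: 8672 in neither the 72 h nor the 120 h list, 12055 in both, and 5673 in the 120 h list but not the 72 h list. The median width of the 72 h-retained peaks in the E2 list was 328 bp (315 to 341), with quartiles at 228 and 481 bp and a range of 146 to 2990 bp. It was 227 bp (224 to 230) for peaks in neither list and 421 bp (416 to 427) for peaks in both. Wide peaks were more often in the 72 h list. Of the E2 peaks absent at 120 h, it held 6.97% of those in the narrowest of 4 equal groups of E2 width (146 to 204 bp). It held 13.6% in the next (205 to 306 bp), 20.2% in the one after (307 to 479 bp) and 30.7% in the widest (480 bp and more). The main comparisons of presence, covered length, distance to a 120 h peak and H3K27me3 at 120 h are therefore also given within these width groups, and the others over all widths. The widths, like the 72 h and 120 h calls, belong to the lists that chose the peaks and are descriptions.

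The 24 h and 40 h lists had no part in the choice, and both held most 72 h-retained peaks. At 24 h, 1387 of 1476 were present (94.0%, 92.6 to 95.1), against 48.2% of peaks in neither list and 96.3% of peaks in both. Peaks in the 120 h list but not the 72 h list gave 63.9%, and all E2 peaks 74.6%. At 40 h, 1306 were present (88.5%, 86.7 to 90.1), against 32.1% of peaks in neither list and 90.7% of peaks in both. Those in the 120 h list but not the 72 h list gave 43.6%, and all E2 peaks 62.8%. The 72 h-retained peaks thus exceeded the peaks in neither list by 45.8 points at 24 h (44.1 to 47.3) and 56.4 points at 40 h (54.4 to 58.2). They did so on 20 of 20 chromosomes in each of these lists. Their difference from the peaks in both lists was -2.35 points (-3.73 to -1.20) at 24 h, negative on 17 of 20 chromosomes. It was -2.18 points (-3.98 to -0.557) at 40 h, negative on 14 of 20, but this sign did not hold within width groups.

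The size of these gaps varied with peak width. In the narrowest group, 84.5% of the 72 h-retained peaks were in the 24 h list, against 32.6% of peaks in neither list and 84.7% of peaks in both. In the widest group the shares were 98.7%, 81.9% and 99.4%. At 40 h the narrowest group gave 75.8% against 19.9% and 72.9%, and the widest 96.0% against 62.0% and 97.2%. The groups between gave 85.2% against 30.9% and 82.9%, and 92.9% against 44.3% and 92.9%, so that at 40 h the 72 h-retained peaks were below the peaks in both lists in the widest group alone. In each of the 4 width groups the 72 h-retained peaks were above the peaks in neither list at 24 and at 40 h, and within a few points of the peaks in both lists.

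**Figure D1:**
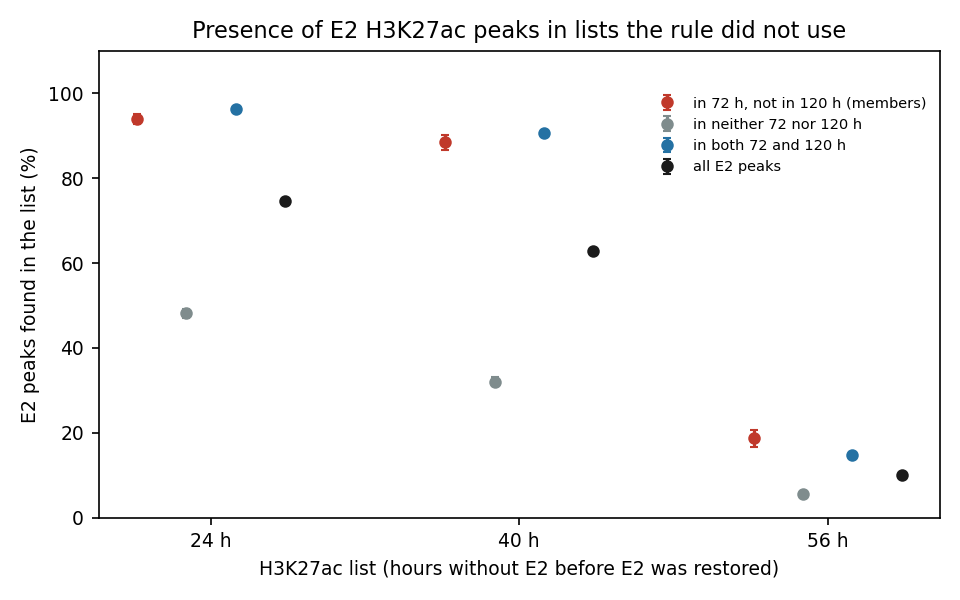
Share of E2 H3K27ac peaks (%, vertical axis) found in the 24, 40 and 56 h lists, for the 72 h-retained peaks (members), peaks in neither the 72 nor the 120 h list, peaks in both, and all E2 peaks; bars are 95% Clopper-Pearson intervals. The 72 h-retained peaks lie at 94.0% and 88.5% at 24 and 40 h, close to the peaks in both lists and far above those in neither.

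The short 56 h list held 276 of the 72 h-retained peaks (18.7%, 16.7 to 20.8), against 5.70% of peaks in neither list and 14.9% of peaks in both, with 10.1% over all E2 peaks. The excess over peaks in both lists was 3.79 points (1.78 to 5.95). It did not have 1 direction: in the narrowest group the shares were 23.9% for the 72 h-retained peaks and 31.1% for peaks in both lists, in the widest 16.2% and 10.6%. It was -2.23 points with peaks at or above the median width of each list. It was -3.04 points when the other H3K27ac lists were cut to the length of the 72 h list, with the shorter 56 h list kept whole. The excess over peaks in neither list was 13.0 points (11.0 to 15.1) and was seen on 20 of 20 chromosomes.

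Seen peak by peak, 1004 of the 1476 were in the 24 and 40 h lists but not the 56 h list, and 267 (18.1%) were in all 3, against 9.38% of all E2 peaks in all 3. Those in all of the 24, 40, 56 and 72 h lists had a median width of 296 bp, and those missing only at 56 h one of 361 bp. Another 110 were in the 24 h list alone of these and 32 in the 40 h list alone. The remaining combinations held 6, 3 and 54 peaks. Apart from presence in all 3, no share over all E2 peaks is given for these combinations, so their counts cannot be called high or low. In total 1271 (86.1%) were in both the 24 and the 40 h list, where 59.9% of all E2 peaks were.

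The 54 peaks in neither the 24 nor the 40 h list (3.66%, against 22.5% of all E2 peaks) come closest to the working name of the set. They were narrow, with a median of 204 bp in E2, and the 72 h list covered a median of 148 bp of each. Of the 54, 33 had a 24 h or 40 h peak within 1 kb, and 0 were in the 56 h list, which held 10.1% of all E2 peaks. The like counts for other E2 peaks missing at 24 and 40 h are not given, so these cannot be called high or low. The widest were a 551 bp peak at chr17:48061784-48062334 (mm9, the build that the coordinates fit), covered over 200 bp at 72 h with a 24 h peak 148 bp away and a 120 h peak 126 bp away, and a 525 bp peak at chr17:47276997-47277521, covered over 167 bp at 72 h with no 24 or 40 h peak nearer than 129715 bp. The next was a 473 bp peak at chr17:27054069-27054541, with 334 bp covered by 2 peaks at 72 h and the nearest 24 h peak 15092 bp away. The other 3 of the 6 widest were 382, 373 and 356 bp wide, on chromosomes 7, 4 and 10.

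Presence in a list need not mean that the whole peak was there, so the length of each E2 peak covered by the other lists was measured. The 24 h list covered a median of 89.5% (88.4 to 90.7) of a 72 h-retained peak, against 90.4% for peaks in both lists. The 40 h list covered 81.7% (80.1 to 83.6), against 81.2%. The 72 h list covered 65.7% (64.1 to 67.0), against 75.6% (75.2 to 76.2). The differences from peaks in both lists were thus -0.937 points at 24 h, 0.459 at 40 h and -9.90 at 72 h. When peaks within 1 kb were merged first, they were -5.25, -8.01 and -17.1 points, so the likeness at 24 and 40 h depended on that choice. The 72 h overlap was part of the choice for both sets, so this is a description.

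The gap at 72 h was present in all 4 width groups and largest in the widest. In the narrowest group the median covered share at 72 h was 80.6% for the 72 h-retained peaks and 91.4% for peaks in both lists, and in the next groups 71.0% against 79.2% and 64.3% against 75.9%. In the widest group it was 45.4% and 69.2%, whereas in the 40 h list it was 77.9% and 79.7% and in the 24 h list 88.2% and 89.7%. Summed over all 1476 peaks, which span 0.574 Mb in E2, the lists of 24, 40, 56 and 72 h covered 80.9%, 71.8%, 12.1% and 57.8% of the length. Covered length was smaller at 72 h than at 24 h for 1119 peaks (75.8%) and larger for 268 (18.2%), against 74.0% and 18.5% of peaks in both lists. It was smaller at 72 h than at 40 h for 66.1% and larger for 28.5%, against 55.1% and 38.5% of peaks in both lists.

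**Figure D2:**
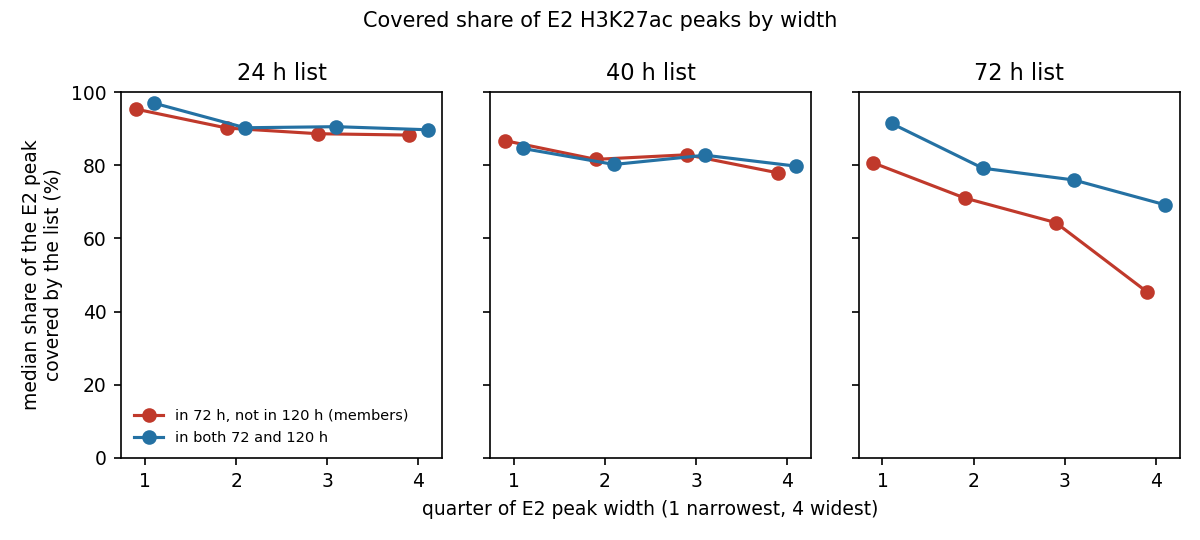
Median share of the E2 peak covered by the 24, 40 and 72 h lists (%, vertical axis) by group of E2 peak width, narrow to wide (horizontal axis) for the 72 h-retained peaks (members) and for peaks in both lists; no error is drawn. The curves lie together at 24 and 40 h and part at 72 h, reaching 45.4% and 69.2% in the widest group.

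The overlapping peak of the 72 h list was mostly a narrower piece. The widest 72 h peak over each 72 h-retained peak had a median width of 237 bp (230 to 245), and it was narrower than the E2 peak in 1077 cases (73.0%, against 70.6% for peaks in both lists). In 1407 cases a single 72 h peak overlapped the E2 peak, and in 69 cases (4.67%) more than 1 did, against 10.9% of peaks in both lists, whose widest 72 h peak had a median of 328 bp (324 to 333). The 72 h list covered under 50% of 407 of the 1476 peaks (27.6%), against 16.7% of peaks in both lists. It covered 118 from end to end (7.99%), against 10.4%.

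The covered length is given region by region for the 12 widest of the 72 h-retained peaks. They were picked by E2 width, which the covered length cannot exceed, so a shorter length in the other lists is partly set by the choice. The 72 h list was also narrower as a whole, with a median of 268 bp against 306 bp in E2. The widest, at chr8:124806608-124809597 (mm9), was 2990 bp in E2, of which the 24, 40, 56 and 72 h lists held 2911, 2561, 508 and 246 bp. The second lay at chr15:78511327-78513622 (2296 bp), with 899, 1164, 0 and 220 bp at 24, 40, 56 and 72 h. Another of the 12 lay near it at chr15:78499673-78501003 (1331 bp), with 1185, 949, 0 and 190 bp. The 72 h list covered 8.23%, 9.58% and 14.3% of the E2 length of these 3. The nearest 120 h peak was 904 bp away for the first but 70172 and 58518 bp away for the chromosome 15 pair.

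Others of the 12 had more of their length in the 72 h list. The peak at chr13:63664453-63665854 (1402 bp) had 1346, 1243 and 1072 bp in the lists of 24, 40 and 72 h, and its nearest 120 h peak was 34389 bp off. The peak at chr5:75971015-75972639 (1625 bp) had 1507, 1374 and 969 bp, the last as 4 separate peaks, and its nearest 120 h peak was 153390 bp off. Neither was in the 56 h list. The peak at chr19:45282229-45283610 (1382 bp) had the reverse order of 56 and 72 h, with 1323, 1149, 981 and 159 bp at 24, 40, 56 and 72 h. Over the 12, the covered share at 72 h ran from 8.23% to 76.5%.

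**Figure D3:**
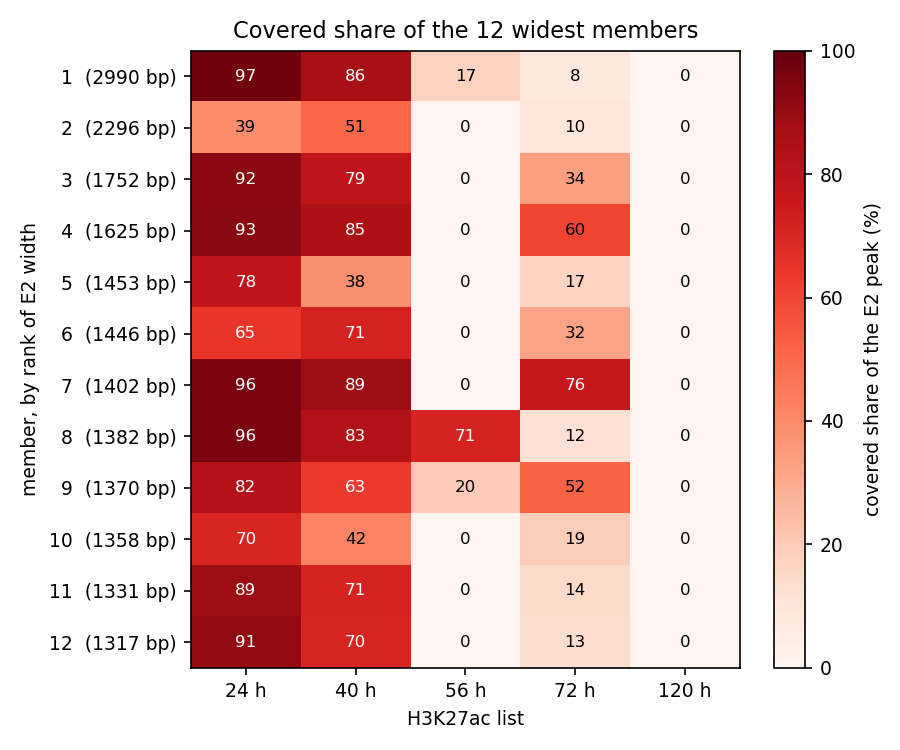
Covered share of the E2 peak (%, colour and printed value) in the 24, 40, 56, 72 and 120 h lists for the 12 widest 72 h-retained peaks, in order of E2 width (rows, with the width in bp). The 120 h column is 0 by the rule; at 72 h the share runs from 8.23% in the widest to 76.5% in the peak of 1402 bp.

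Absence at 120 h was measured by 1 bp, and many 72 h-retained peaks had a 120 h peak close by. The median distance to the nearest 120 h peak was 4220.5 bp (3051 to 6049), against 8009 bp (7361 to 8705) for peaks in neither list. A 120 h peak lay within 1 kb of 586 (39.7%, 37.2 to 42.3), against 27.7% of peaks in neither list, a difference of 12.03 points (9.38 to 14.7) with the same sign on 19 of 20 chromosomes. The 120 h list also chose the peaks of both classes, so all these distances are descriptions. From the narrowest to the widest width group the shares were 46.6%, 45.9%, 38.9% and 29.0%, against 29.4%, 29.2%, 25.0% and 21.1% of peaks in neither list. Over all E2 peaks 74.3% had one within 1 kb, most of them by overlap. Within 100 bp there was one for 98 of them (6.64%), against 3.26% of peaks in neither list and 65% of all E2 peaks. The nearest 120 h peak was over 10 kb away for 612 (41.5%), against 46.7% of peaks in neither list and 16.7% of all E2 peaks. It was over 100 kb away for 129 (8.74%), where 7.97% of peaks in neither list and 2.94% of all E2 peaks were so far.

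Presence at 24 and 40 h varied little with the distance to a 120 h peak. Of the 586 with a 120 h peak within 1 kb, 94.5% were in the 24 h list, 88.7% in the 40 h list and 14.8% in the 56 h list. Of the 612 with none within 10 kb, the shares were 93.5%, 88.1% and 18.95%, and the 278 in between had the highest 56 h share, 26.3%. The near and the far peaks' median widths were 293 and 355.5 bp, and the 72 h list covered a median of 66.1% and 65.7% of each. In 51 of the 586 the 72 h peak that overlapped the E2 peak also reached a 120 h peak. Counting a 120 h peak within 1 kb as present left 890 peaks of the 1476, merging peaks within 1 kb left 845, and cutting the longer lists to the length of the 72 h list gave 3843.

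At the edge of the rule, the 5 peaks nearest to a 120 h peak were 1 to 5 bp away from it. The nearest, at chr11:54766272-54766442 (171 bp), lay 1 bp from a 120 h peak and was covered over 74 bp at 72 h and by no peak at 24 or 40 h. Just outside, 5 E2 peaks found in the 72 h list shared 2 to 10 bp with a 120 h peak. The first of them lay at chr9:64020300-64020756, with 457 bp in E2, 374 bp at 72 h and 2 bp at 120 h. On the other side of the rule, the smallest overlap with a 72 h peak was 6 bp, at chr17:84551980-84552174 (195 bp), and the next 4 shared 14 to 18 bp.

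**Figure D4:**
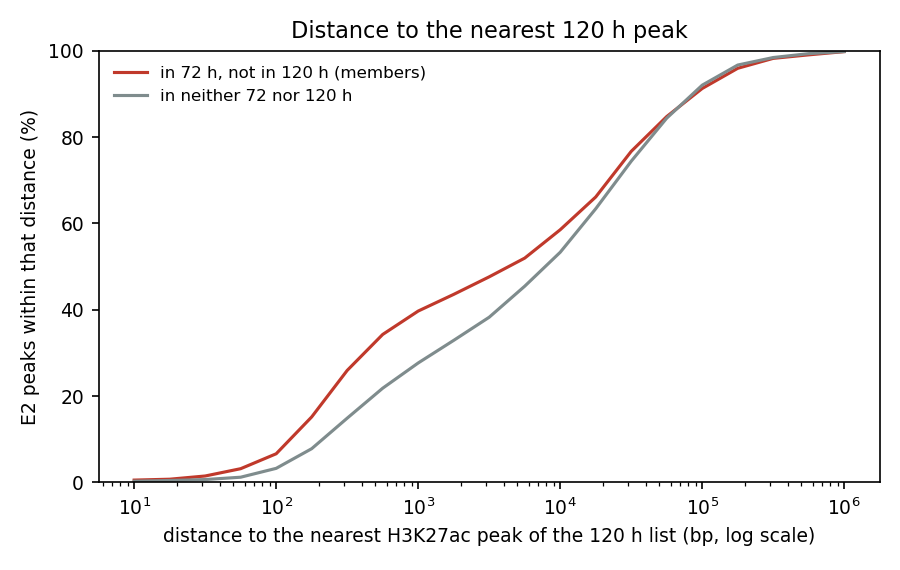
Cumulative share of peaks (%, vertical axis) by distance to the nearest H3K27ac peak of the 120 h list (bp, log axis) for the 72 h-retained peaks (members) and for peaks in neither list. Within 1 kb lie 39.7% and 27.7%, and the curves come together at long distances.

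The 72 h-retained peaks lay near other E2 peaks about as often as E2 peaks in general. Another E2 peak was within 12500 bp of 1181 (80.0%, 77.9 to 82.0), against 82.5% of peaks in neither list, 81.0% of peaks in both and 82.4% of all E2 peaks. When E2 peaks within 12500 bp of each other were joined, 1265 of the 11524 resulting clusters held at least 1 of them. Single peaks made up 295 of the 1265 (23.3%), against 42.7% of all clusters, and a cluster of more peaks had more chances to hold one. A peak in both lists was in 587 (46.4%), against 61.6% of all clusters, and a peak in neither list in 569 (45.0%), against 42.0%. Both kinds were in 264 (20.9%), against 15.9%. In 592 of the 1265 (46.8%) no E2 peak was in the 120 h list, against 24.8% of all clusters. The rule sets part of these shares, since it takes peaks absent at 120 h, and they are descriptions. Of the 970 clusters of 2 or more peaks that held a 72 h-retained peak, 32 were made of 72 h-retained peaks alone. The like count for the other classes is not given.

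Neighbouring peaks within a cluster shared their fate more often than the list as a whole. Of 1602 next-door E2 peaks of 72 h-retained peaks, counted on each side within 12500 bp, 17.1% were themselves 72 h-retained, where 4.90% of all such neighbours were. Peaks in neither list made up 38.8% of their neighbours and peaks in both lists 35.1%, against 31.5% and 41.9% of all neighbours. These classes are the 72 h and 120 h calls of the rule, and a single 72 h or 120 h peak can overlap adjacent E2 peaks. Part of the likeness of neighbours can thus come from the rule, and these shares are descriptions. Runs of consecutive E2 peaks were also counted, with no limit on distance. The longest unbroken run of 72 h-retained peaks was 6, with 2 runs of 5 and 4 of 4, and 331 of the 1476 (22.4%) lay in runs of 2 or more. No such share is given for the other classes, so it cannot be called high or low.

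That run of 6 lay at chr15:63863849-63868399 (mm9), a stretch of 4551 bp. H3K27ac peaks covered 3673, 3106, 2216, 2064 and 0 bp of it at 24, 40, 56, 72 and 120 h, against 2504 bp in E2. The stretch thus had H3K27ac peaks in every restored list, including the short 56 h list, and held 8 separate peaks at 72 h. Of the 2 runs of 5, 1 lay on chromosome 18, where no region is named. The other, at chr3:88566402-88639587, spread over 73186 bp, had 1573, 1761, 0, 1378 and 175 bp in the same lists, against 1440 bp in E2. The run of 4 with the longest span, spread over 1611793 bp of chromosome 15 from 61869274 to 63481066, had 5982, 5428, 2164, 6305 and 3564 bp, against 1171 bp in E2, so the other lists held much that E2 lacked there.

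Counted in bins of 100 kb, 978 bins held 1 of the 72 h-retained peaks, 144 held 2 and 46 held 3, and 10, 4 and 1 bins held 4, 6 and 8. The fullest, chr7:73300001-73400000, held 8 of them. Its H3K27ac peaks in all numbered 37, 32, 27, 21 and 12 in the lists of 24, 40, 56, 72 and 120 h, against 37 in E2. They were thus fewer with each longer withdrawal from 40 h on. The bin chr16:33700001-33800000 held 6 of them and differed, with 29, 34, 21, 30 and 7 peaks in those lists, against 12 in E2. The bins chr8:97500001-97600000, chr12:8800001-8900000 and chr15:63800001-63900000 also held 6 each. None of these 5 bins had an H3K27me3 peak in any of the 5 H3K27me3 lists. The share of other bins without one is not given, and only 2.07% of all E2 peaks overlapped one in any list, so this is a description.

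H3K27me3, which played no part in the choice, was rare at these peaks in every list. An H3K27me3 peak overlapped 3 of the 1476 in E2 (0.203%, 0.0419 to 0.593), 1 in each of the 24 and 40 h lists, 3 in the 72 h list and 23 in that of 120 h (1.56%, 0.990 to 2.33). Over all E2 peaks the shares were 0.33%, 0.337%, 0.344%, 0.943% and 2.04%. In any list, 24 had it (1.63%), against 2.07% of all E2 peaks. At 120 h the share of 1.56% stood against 5.36% (4.90 to 5.86) of peaks in neither list, a difference of -3.804 points (-4.52 to -2.91). Against 0.174% of peaks in both, the difference was 1.38 points (0.858 to 2.16). Peaks in the 120 h list but not the 72 h list gave 1.04% (0.793 to 1.34), an interval that overlaps that of the 72 h-retained peaks. The other H3K27me3 lists covered more of the genome than that of E2, with 9.10, 6.08, 8.06 and 12.9 Mb at 24, 40, 72 and 120 h, against 5.47 Mb in E2.

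The share was below that of peaks in neither list in all 5 lists. In E2 it was 0.203% against 0.773%, a difference of -0.569 points (-0.816 to -0.144), lower on 16 of 20 chromosomes. At 72 h, after 48 h of restored E2, it was 0.203% against 2.58% (2.26 to 2.94), a difference of -2.38 points (-2.76 to -1.88), lower on 19 of 20 chromosomes. At 120 h it was lower on 17 of 20. Only 3 of the 72 h-retained peaks had the mark in E2, 3 at 72 h and 23 at 120 h. With 3, most chromosomes had none, so the counts of chromosomes in E2 and at 72 h were largely fixed in advance. From the narrowest to the widest width group, the 120 h shares were 0.379%, 0.243%, 1.65% and 3.72% for the 72 h-retained peaks and 3.26%, 4.84%, 7.29% and 11.9% for peaks in neither list. Among peaks with no 120 h H3K27ac within 10 kb they were 2.61% (16 of 612) and 8.72%.

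**Figure D5:**
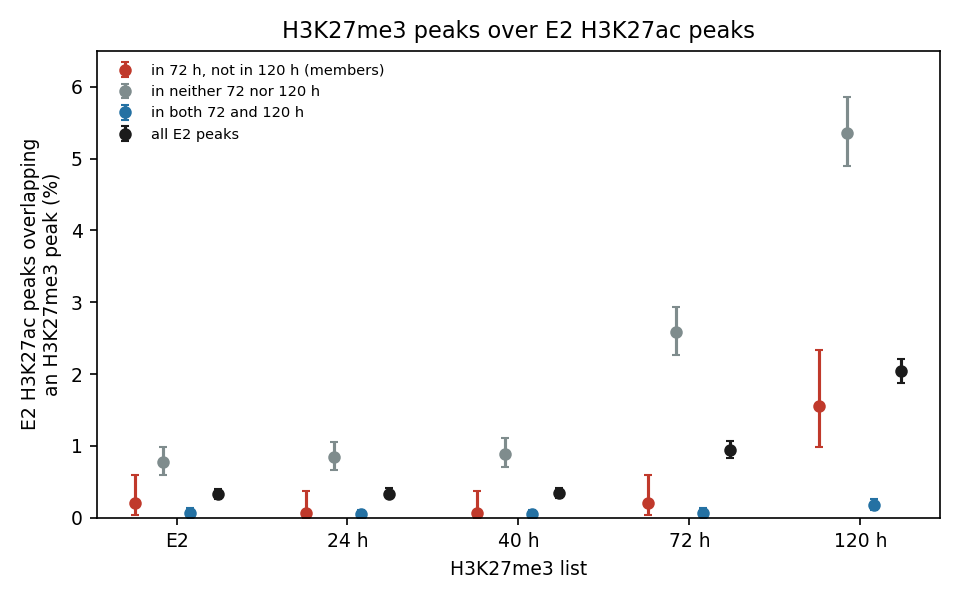
Share of E2 H3K27ac peaks overlapped by an H3K27me3 peak (%, vertical axis) in each H3K27me3 list, for the 72 h-retained peaks (members), peaks in neither list, peaks in both and all E2 peaks; bars are 95% Clopper-Pearson intervals. At 120 h the 72 h-retained peaks are at 1.56%, between 5.36% and 0.174%.

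The 23 peaks under H3K27me3 at 120 h were wide, with a median of 638 bp, and a median of 67.3% of their width was covered by the mark. All 23 were in the 24 h H3K27ac list, 20 in the 40 h list and 1 in the 56 h list. Those lists held 94.0%, 88.5% and 18.7% of all 72 h-retained peaks, and 74.6%, 62.8% and 10.1% of all E2 peaks. In the widest width group they held 98.7%, 96.0% and 16.2% of the 72 h-retained peaks. Of the 24 with H3K27me3 in any list, 20 had it at 120 h and in no other. The like count is not given for all E2 peaks, but 568 of their 577 with the mark in any list had it at 120 h. The widest of the 72 h-retained peaks, on chromosome 8, had 518 bp of H3K27me3 at 120 h and none in E2. The peak at chr2:156665970-156667422 (1453 bp) had 415 bp at 120 h, and that at chr11:3812629-3813801 (1173 bp) had 729 bp.

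A peak at chr14:47503721-47504731 (1011 bp) had 931, 836 and 489 bp of H3K27ac at 24, 40 and 72 h, and H3K27me3 covered 810 bp of it at 120 h, against 0 bp in E2. The 3 peaks with both marks in the E2 lists lay at chr6:113432551-113433192, chr17:32966766-32967157 and chr5:117597746-117597946. The one on chromosome 17 had H3K27me3 over 303 bp at 72 h and from end to end at 120 h, against 328 bp in E2. The share of 1.56% at 120 h rests on few peaks and moved to between 0.468% and 3.32% under other settings, but it was below that of peaks in neither list in all of those tried.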

How the data were processed

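The authors deposited 1 peak list per sample with the chromosome, start and end of each peak and no score; the values are other measures than counts, namely coordinates in bp. The submitters' processing notes name Bowtie2 2.0, BWA and MACS2 2.0 and the builds mm9 and mm10; the sources used here do not say which belongs to which list, nor the threshold, the inputs or the read depth. H3K27ac and H3K27me3 coordinates were taken as mm9: on chromosome 1 they end at 196957583 and 197003021 in E2, past the last gene of GRCm38.p6 (195176880), and 9.52% of E2 H3K27ac peaks lay within 1 kb of a protein-coding gene end, against 8.31% after a shift of 100 kb (E2 H3K4me3: 69.2% and 9.33%). No mm9 annotation or genome was used, so no gene is named and no sequence printed.

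Intervals were compared in Python 3.11.15 with numpy 2.4.6, pandas 2.3.3 and scipy 1.17.1, and the functions were checked on simulated peaks. Coordinates are printed 1-based. Regions were named by a rule: the widest peaks of each kind, the 5 fullest bins, the 3 longest runs (ties by span) and the peaks at the edges of the overlap rule; regions on chromosome 18 were counted but passed over in naming. The peaks, classes and measures were chosen with earlier results of these data known. Alternatives were 50% cover, a margin of 1 kb at 120 h, merging within 1 kb, peaks at or above the median width, lists cut to equal length (the 24930 widest H3K27ac and 3845 widest H3K27me3 peaks; the 56 h list, with 6356, was kept whole), autosomes, H3K27me3 within 1 kb and joining within 5 kb. H3K4me3 at other times, V5 and AM lists were not used here.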

Additional observations from a re-analysis of the deposited data

How the results depend on the processing

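No paired analysis was possible because each condition had 1 library per mark. Alternatives for the differences between classes and for covered shares were added after the data were seen. Over 15 results, 45 recomputed values stayed within the interval of the reported value (counts: within 1.5 times), 47 moved beyond it and 2 reversed a difference whose interval excluded 0; the cause was not tested. With autosomes alone all stayed within it. Counting a 120 h peak within 1 kb as present gave 890 peaks, a 56 h share of 21.2%, a median width of 352.5 bp, 70.0% within 12500 bp of another E2 peak, an H3K27me3 difference of -4.77 points from peaks in neither list, a 56 h difference of 6.33 points from peaks in both lists and a covered share at 24 h 2.24 points lower than theirs (-2.24). Merging peaks within 1 kb gave 845 peaks, 20.9% at 56 h, a median width of 498 bp, 44.4% near another E2 peak and 3.31% with H3K27me3 at 120 h; differences from peaks in neither list were 47.3 points at 24 h, 58.3 at 40 h and -2.30 for H3K27me3, and from peaks in both lists 2.77 for H3K27me3 and -5.25, -8.01 and -17.1 for the covered share at 24, 40 and 72 h, where the 40 h value had been 0.459. Peaks at or above the median width gave 91.1%, 84.7% and 8.78% at 24, 40 and 56 h, 481 bp, 54.4% near another E2 peak and 0.497% with H3K27me3; differences were 41.2 and 49.3 points from peaks in neither list at 24 and 40 h, and -2.23 at 56 h (reversed), 0.478 for H3K27me3 and -5.49 for the covered share at 72 h from peaks in both. Lists cut to equal length, with the shorter 56 h list kept whole, gave 3843 peaks, as fewer 120 h peaks were kept, with 83.0% at 24 h, 12.46% at 56 h, 351 bp, 76.1% near another E2 peak and 0.468% with H3K27me3; differences were 53.5 points at 40 h from peaks in neither list, and -3.04 at 56 h (reversed), 0.326 for H3K27me3 and -2.62 for the covered share at 24 h from peaks in both. Asking for 50% cover gave 85.4% at 40 h, 13.2% at 56 h, 353 bp, 0.556% with H3K27me3, and differences of 0.534 points at 56 h and 0.493 for H3K27me3 from peaks in both. H3K27me3 within 1 kb gave 3.32% and a difference of 2.55 points from peaks in both, and joining within 5 kb gave 72.9% near another E2 peak. The signs of the differences at 24 and 40 h from peaks in neither list, of both H3K27me3 differences and of the covered share at 72 h held in every alternative tried. With no depth or scores, an absent peak means that none was called.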

Other observations

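The 72 h-retained peaks were spread over all 20 chromosomes. Their share of the E2 peaks of a chromosome ran from 3.69% on chromosome 11 (93 of 2517, 2.99 to 4.51) to 7.79% on chromosome X (38 of 488, 5.57 to 10.5), with 7.73% on chromosome 14 (70 of 905). As a share of the E2 peaks absent at 120 h, chromosome 11 had 10.0% and chromosome 3 had 20.8% (72 of 346). These are descriptions of the lists that chose the peaks.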
